A study of Drosophila melanogaster with 16 samples.

Results

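Embryos of 2 Jasper alleles were compared with embryos of a Su(var)3-9 mutant at nuclear cycle 14 (NC14, stage 5), the long interphase in which the blastoderm forms cells and most zygotic genes switch on. The comparison took every NC14 library of these genotypes, 6 of the 16 libraries of the series: 2 of Su113, 2 of Su140 and 2 of Su(var)3-9. The control strain wm4h was not used, so each value gives a difference between mutants, and which of them departs from the control cannot be told from it. Per the labels the Jasper embryos were homozygous for JasperSu113 or JasperSu140, and the third genotype was homozygous for Su(var)3-906. All 3 also carry wm4h, an X chromosome inversion that sets the eye pigment gene w beside heterochromatin. Each library came from a pool of 50 whole embryos sorted by hand, laid within 1 h and aged for 2 h at 25 °C, from stocks kept at 20 °C. In whole embryos, fewer cells of a type and less RNA per cell cannot be told apart.

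JASPer is a chromatin cofactor of active genes. It binds methylated histone tails through its PWWP domain and recruits the kinase JIL-1 there. Su(var)3-9 is a histone methyltransferase that places the mark of silent heterochromatin, to which HP1 binds. Mutations of Su(var)3-9 are classical suppressors of position effect variegation, the patchy silencing of a gene moved next to heterochromatin, and the title of the series describes the Jasper mutants as suppressors too. Comparing these mutants with each other asks where their transcriptomes part.

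Genes were compared by CPM, edgeR's counts scaled by library size. The 4 Jasper libraries entered as the mean of both allele means, and edgeR's quasi-likelihood test gave log2 fold changes with standard errors (SE), positive where the Jasper alleles were higher. A gene is called counted below where its Benjamini-Hochberg adjusted p was under 0.05 and both alleles lay on the same side of Su(var)3-9. Library totals were 67579862 to 92790237 counts, which put 3 counts at 0.0316 to 0.0446 CPM, a floor that covers counting error only. Replicates differed by an SD of 0.46 (Su113), 0.64 (Su140) and 0.62 (Su(var)3-9) on the log2 CPM scale. Nothing in the labels says that the pools came from separate crosses, so p-values measure the spread between pools, which may be technical.

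The genes named by the genotypes did not pass the test over both alleles. Jasper (FBgn0039743) was at 151 and 141 CPM in Su113, 152 and 130 CPM in Su140, and 153 and 160 CPM in Su(var)3-9. All 4 Jasper libraries lay just below both Su(var)3-9 libraries, with a log2 fold change of -0.13 ± 0.10 (SE, adjusted p = 0.383). Su(var)3-9 (FBgn0263755) had 122 and 122 CPM in Su113, 85.5 and 71.8 CPM in Su140, and 108 and 137 CPM in its own mutant. Its libraries overlapped, and the difference of -0.32 ± 0.13 missed the threshold (adjusted p = 0.0989), but passed without Su(var)3-9 replicate 1 (-0.50, adjusted p = 0.0131). Su140 alone was lower than the Su(var)3-9 mutant (-0.64 ± 0.15, adjusted p = 0.0146), and Su113 was higher than Su140 (0.63 ± 0.15, adjusted p = 0.0287). The transcription unit shares its span with eIF2gamma, so reads of that gene may be among these counts. That gene was itself counted lower in the Jasper alleles and passed in each allele alone. RNA of neither Jasper nor Su(var)3-9 was near 0 in the embryos labelled as its mutant, so RNA levels do not check the labels. JIL-1, the kinase partner of JASPer, stood at 253 and 250 CPM in Su113, 366 and 432 CPM in Su140, and 272 and 186 CPM in Su(var)3-9. Only Su140 lay above the others, and the difference over both alleles was 0.47 ± 0.16 (adjusted p = 0.056). It passed in DESeq2, without a filter on low counts, and without Su(var)3-9 replicate 1.

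Among the clearest differences was w, which encodes a transporter of eye pigment precursors (X:2790599-2796466, dm6, minus strand). It was at 5.18 and 3.51 CPM in Su113, 7.83 and 9.47 CPM in Su140, and only 0.132 and 0.105 CPM in Su(var)3-9, where each library held 10 counts. All 4 Jasper libraries lay far above both Su(var)3-9 libraries, a 51.5-fold difference (log2 5.69 ± 0.34, adjusted p = 0.000509). The gene kirre, an immunoglobulin-type adhesion protein of fusing myoblasts, spans w on the opposite strand and followed it. It was at 13.5 and 10.3 CPM in Su113, 29.5 and 30.7 CPM in Su140, and 0.685 and 1.43 CPM in Su(var)3-9 (log2 4.14 ± 0.33, adjusted p = 0.00107). Both alleles were above Su(var)3-9, Su140 by more. The log2 value of kirre was 3.71 without Su(var)3-9 replicate 1 and 4.78 without replicate 2. The kit keeps strand, but the strand setting of the counting is not given in the sources used here, so reads of w and kirre cannot be told apart with certainty. The wm4h inversion carried by every genotype changes which genes lie beside w, whereas the window used here follows dm6 coordinates. Within 500 kb of w on these coordinates, 8 of 56 tested genes were counted higher and 6 lower, against 12.1% and 17.1% of all genes. Those counts were 18 and 10 without Su(var)3-9 replicate 1, and at most 3 each with any other library left out. Klp3A, a chromosome-bound kinesin in this interval, was lower, at 72.4 and 76.1 CPM in Su113, 52.0 and 58.8 CPM in Su140 and 101 and 127 CPM in Su(var)3-9.

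**Figure D1:**
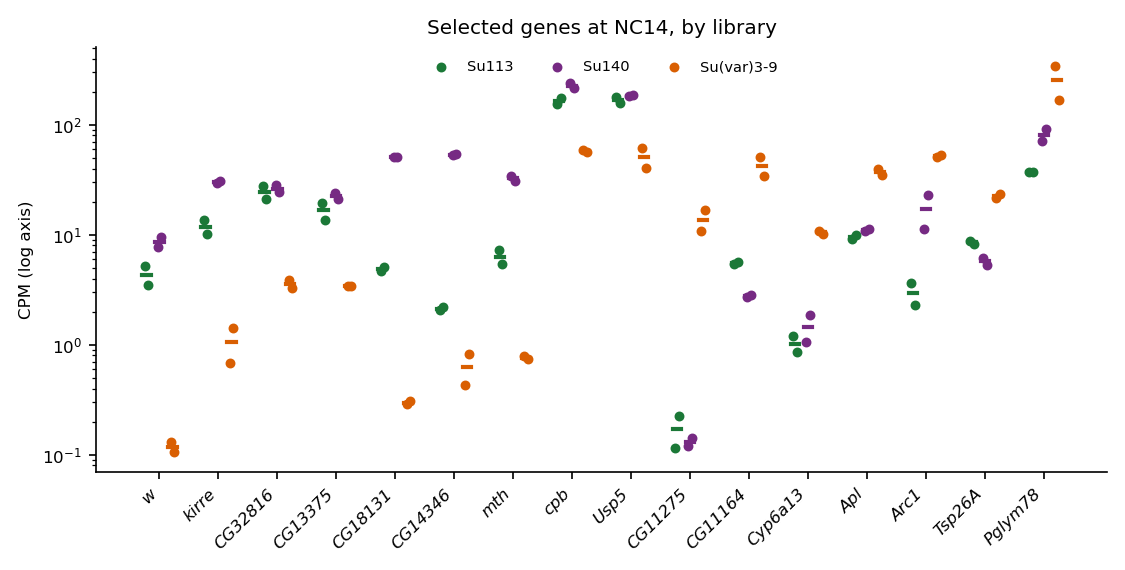
CPM of 16 genes in the 6 NC14 libraries on a log axis, with 1 point per library and a bar at the mean of each genotype. The Jasper libraries of w sit between 3.51 and 9.47 CPM and its Su(var)3-9 libraries at 0.105 and 0.132 CPM, while CG11275 shows the reverse order.

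Over all genes, 3098 of the 10613 tested were counted (29.2%). Of these, 1281 were higher in the Jasper alleles (12.1% of all tested) and 1817 lower (17.1%). In 2710 of them (25.5% of all tested) the 4 Jasper libraries also lay on one side of both Su(var)3-9 libraries. A difference of at least 2-fold was found in 326 genes higher (3.07%) and in 888 lower (8.37%). Another 71 genes passed the test with the alleles on opposite sides and were left out.

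The alleles did not contribute equally. Both share the same 2 Su(var)3-9 libraries, so their values are given side by side and not as support for each other. Su113 alone passed against Su(var)3-9 in 425 genes (4%), and Su140 in 4570 (43.1%). Of the 3098 counted genes, 2669 had the larger difference in Su140 (86.2%), beside 72.9% of all genes tested. Su113 and Su140 differed from each other in 2245 genes (21.2%), 1433 of them higher in Su113. Each allele passed on its own in 313 genes (2.95%), 140 higher and 173 lower. If the 4 Jasper libraries were taken as 1 group, so that the gap between alleles counted as spread, 35 genes were called, 10 higher and 25 lower, all among the 3098. The count depended on single libraries. It was 993 without Su113 replicate 1 and 1192 without its replicate 2. With a Su140 library left out it was 2216 (replicate 1) or 1795 (replicate 2), and with a Su(var)3-9 library left out 4296 (replicate 1) or 1395 (replicate 2).

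**Figure D2:**
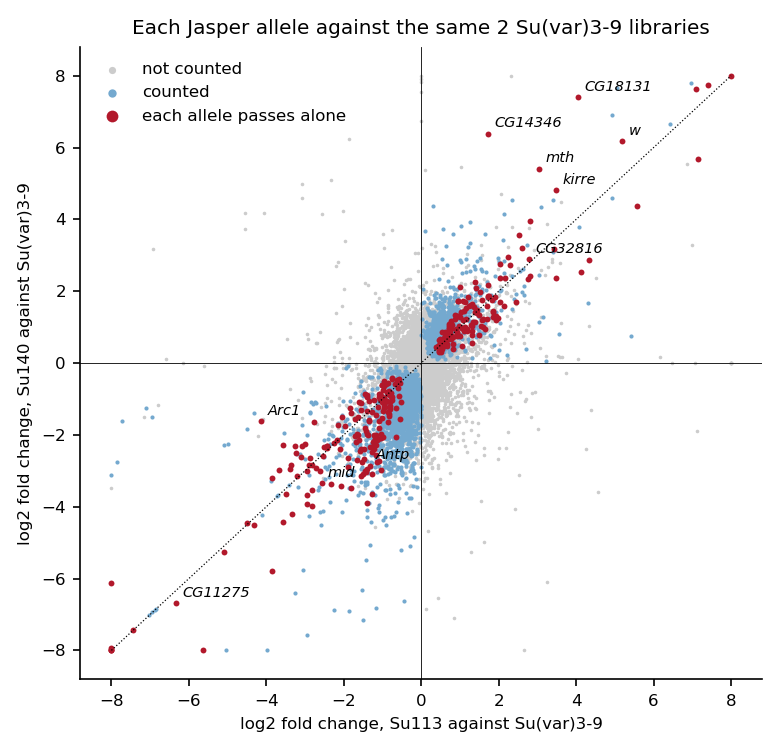
Log2 fold change of each tested gene in Su113 (x) and in Su140 (y), both against the same 2 Su(var)3-9 libraries, which ties the axes together, with values past 8 drawn at 8. Genes passing in each allele (313, red) lie in both same-sign corners. CG18131 and CG14346 lie far above the dotted line of equality, and Arc1 also lies above it, with both values negative.

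Several genes called with the 4 Jasper libraries as 1 group are described here. That fit favours genes with close levels in both alleles, so such closeness is no separate result. Even so, w, cpb and CG11164, also among the genes called, differed between alleles. CG32816 and CG13375 lie 1 after the other near the tip of the X chromosome (X:316576-470726 and X:283186-294962, both minus strand). CG32816 was at 27.9 and 20.9 CPM in Su113, 28.1 and 24.6 CPM in Su140, and 3.86 and 3.26 CPM in Su(var)3-9 (log2 2.83 ± 0.20, adjusted p = 0.00084). Its span covers the achaete-scute genes on the other strand, with the same limit on strand as for w. CG13375 was at 19.6 and 13.7 CPM in Su113, 23.9 and 21.4 CPM in Su140, and 3.43 and 3.42 CPM in Su(var)3-9 (log2 2.50 ± 0.20, adjusted p = 0.00109). The pair thus stood several-fold higher in every Jasper library. Usp5, which recycles ubiquitin chains, was at 178 and 158 CPM in Su113, 181 and 185 CPM in Su140, and 61.4 and 40.9 CPM in Su(var)3-9 (log2 1.78 ± 0.18). The capping protein gene cpb, whose product caps growing actin filaments, was at 156 and 177 CPM in Su113, 241 and 214 CPM in Su140, and 59.3 and 56.8 CPM in Su(var)3-9 (log2 1.74 ± 0.11, adjusted p = 0.000777). The kinesin gene pav, needed for cytokinesis, differed less but evenly, at 235 and 235 CPM in Su113, 231 and 244 CPM in Su140, and 142 and 137 CPM in Su(var)3-9 (log2 0.76 ± 0.09).

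In the other direction, CG11275 (2R:22179695-22182642, plus strand) was at trace levels in the Jasper alleles. It was at 0.115 and 0.227 CPM in Su113, 0.119 and 0.143 CPM in Su140, and 10.7 and 16.7 CPM in Su(var)3-9, a 91.4-fold difference (log2 -6.51 ± 0.31, adjusted p = 0.000231). CG42853 had 0 counts in both Su113 libraries, 2 and 0 counts in Su140, and 195 and 451 counts in Su(var)3-9. Its summed level was 593 times higher in Su(var)3-9 (163 to 4905 from counting error alone). The clock gene tim had 0 and 0 counts in Su113, 2 and 0 counts in Su140, and 67 and 114 counts in Su(var)3-9, a summed level 166 times higher in Su(var)3-9 (45.3 to 1382). All 3 transcripts were thus nearly off in one arm and present in the other. Hsc70-2, a cognate heat shock protein, was at 0.0917 and 0.0267 CPM in Su113, 0.0595 and 0.0475 CPM in Su140, and 1.65 and 0.821 CPM in Su(var)3-9.

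Further genes lower in both alleles were detected in all 6 libraries. Their levels in the Jasper alleles ranged from 0.149 CPM (snRNA:U2:34ABa) to 19.3 CPM (SA1). The cytochrome P450 gene Cyp6a13 was at 1.19 and 0.854 CPM in Su113, 1.06 and 1.85 CPM in Su140, and 10.8 and 10.2 CPM in Su(var)3-9 (log2 -3.10 ± 0.25, adjusted p = 0.00111). Cyp9c1, another P450, was at 0.619 and 0.614 CPM in Su113, 0.595 and 0.475 CPM in Su140, and 5.43 and 2.65 CPM in Su(var)3-9, and its log2 value of -2.81 was -2.22 without Su(var)3-9 replicate 1 and -3.24 without replicate 2. Of the 82 tested P450 and glutathione transferase genes, 7 were counted higher and 13 lower, beside the 12.1% and 17.1% of all genes. Without Su(var)3-9 replicate 1 the 7 became 14, and with any 1 Jasper library left out they became 2 to 4. CG11164 was at 5.38 and 5.66 CPM in Su113, 2.71 and 2.85 CPM in Su140, and 50.4 and 34.4 CPM in Su(var)3-9 (log2 -3.44 ± 0.17). Apl was at 9.18 and 10.0 CPM in Su113, 10.9 and 11.2 CPM in Su140, and 39.9 and 35.0 CPM in Su(var)3-9 (log2 -1.86 ± 0.13). Both genes separated the arms without overlap, and Apl was alike in both alleles. The cohesin subunit gene SA1 was at 17.8 and 19.3 CPM in Su113, 13.5 and 12.1 CPM in Su140, and 50.0 and 64.0 CPM in Su(var)3-9 (log2 -1.89 ± 0.14). Neither allele overlapped Su(var)3-9. Nadk2, a kinase of NAD, was at 0.71 and 0.801 CPM in Su113, 0.685 and 0.855 CPM in Su140, and 4.10 and 2.68 CPM in Su(var)3-9. Among noncoding RNAs, snRNA:U2:34ABa, a spliceosomal RNA copy, was at 0.149 and 0.187 CPM in Su113 and 0.193 and 0.154 CPM in Su140, beside 1.61 and 1.49 CPM in Su(var)3-9. U2 copies are nearly identical, so reads may be split among them. The small RNA gene sncRNA:CR43603 was at 1.73 and 1.47 CPM in Su113, 1.82 and 1.32 CPM in Su140, and 10.3 and 14.7 CPM in Su(var)3-9, and it lies within CG10576 on the same strand.

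Other large differences had the same direction in both alleles and unequal size. CG18131 (2L:1498455-1500608, minus strand) was at 4.72 and 5.14 CPM in Su113, 50.9 and 50.6 CPM in Su140, and 0.290 and 0.305 CPM in Su(var)3-9 (log2 5.72 ± 0.19, adjusted p = 3.23e-05). CG14346, on the same arm at 2L:1367996-1369050, was at 2.06 and 2.19 CPM in Su113, 53.1 and 53.8 CPM in Su140, and 0.435 and 0.821 CPM in Su(var)3-9 (log2 4.06 ± 0.27). The methuselah gene mth, a receptor tied to lifespan, was at 7.26 and 5.39 CPM in Su113, 34.4 and 30.6 CPM in Su140, and 0.791 and 0.737 CPM in Su(var)3-9 (log2 4.23 ± 0.22, adjusted p = 0.000231). In all 3 genes the order was Su140, then Su113, then Su(var)3-9, with no overlap. CG42857 was uneven within Su113, at 6.21 and 0.294 CPM, beside 15.6 and 10.0 CPM in Su140 and 0.105 and 0.105 CPM in Su(var)3-9. Its log2 value of 5.92 ± 1.26 became 4.18 without Su113 replicate 1, and without Su(var)3-9 replicate 2 its adjusted p rose to 0.0656.

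Arc1, whose product forms capsids that carry RNA, was likewise higher in Su140 than in Su113, but both alleles lay below Su(var)3-9. It was at 3.62 and 2.32 CPM in Su113, 11.2 and 22.8 CPM in Su140, and 51.5 and 53.0 CPM in Su(var)3-9 (log2 -2.88 ± 0.28, adjusted p = 0.00189). Pglym78, a phosphoglycerate mutase of glycolysis, was at 37.2 and 36.9 CPM in Su113, 71.3 and 91.0 CPM in Su140, and 340 and 167 CPM in Su(var)3-9 (log2 -2.21 ± 0.25). Its Su(var)3-9 libraries were far apart, and the value was -1.61 without replicate 1 and -2.64 without replicate 2. It was 1 of 2 glycolysis genes lower among 13 tested (15.4%, beside 17.1% of all genes), where 0 were higher. The median of that list was 0.29, with -0.21 in Su113 and 0.56 in Su140. The adhesion receptor gene Dscam2 was at 2.84 and 3.32 CPM in Su113, 1.28 and 1.40 CPM in Su140, and 6.87 and 10.2 CPM in Su(var)3-9 (log2 -2.07 ± 0.21). The tetraspanin gene Tsp26A was at 8.87 and 8.22 CPM in Su113, 6.12 and 5.32 CPM in Su140, and 21.8 and 23.3 CPM in Su(var)3-9 (log2 -1.69 ± 0.14). Both membrane proteins were lowest in Su140, and so was mRpL2, a subunit of the mitochondrial ribosome, at 8.24 and 8.37 CPM in Su113, 5.15 and 4.21 CPM in Su140, and 23.6 and 25.6 CPM in Su(var)3-9. LManII, a lysosomal mannosidase, was at 145 and 136 CPM in Su113, 51.8 and 54.8 CPM in Su140, and 207 and 236 CPM in Su(var)3-9 (log2 -1.36 ± 0.10). The secreted matrix gene nolo was close to Su(var)3-9 in Su113, at 7.69 and 8.33 CPM, and far lower in Su140, at 0.967 and 1.34 CPM, beside 8.66 and 9.80 CPM in Su(var)3-9. For nolo the difference thus came from Su140. Jelly belly, jeb, the secreted ligand of the receptor Alk, was at 3.41 and 3.87 CPM in Su113, 1.04 and 3.29 CPM in Su140, and 24.2 and 31.9 CPM in Su(var)3-9 (log2 -3.31 ± 0.36, adjusted p = 0.00294).

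Patterning genes that act late in the segmentation hierarchy were lower in the Jasper alleles. Of the 8 Hox genes, which set segment identity, 7 were counted lower (87.5%) and 0 higher, beside 17.1% and 12.1% of all genes. Their median log2 fold change was -1.48, beside -0.02 over all genes tested. Antp was at 47.8 and 53.4 CPM in Su113, 19.4 and 15.6 CPM in Su140, and 97.5 and 156 CPM in Su(var)3-9 (log2 -2.09 ± 0.19, adjusted p = 0.00157). Abd-B was at 10.2 and 10.3 CPM in Su113, 4.24 and 4.56 CPM in Su140, and 22.8 and 36.4 CPM in Su(var)3-9 (log2 -2.14 ± 0.19, adjusted p = 0.00145). Both were stepwise lower from Su(var)3-9 to Su113 to Su140. The zinc finger gene tsh, which acts with Hox genes in the trunk, was at 98.6 and 109 CPM in Su113, 27.6 and 20.8 CPM in Su140, and 143 and 229 CPM in Su(var)3-9.

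Segment polarity genes, which fix the polarity of each segment, were lower in 7 of 9 tested (77.8%, median -1.40), and none was higher. Of all genes, 17.1% were lower and 12.1% higher. The T-box gene mid was at 7.16 and 9.20 CPM in Su113, 5.01 and 4.63 CPM in Su140, and 38.4 and 59.0 CPM in Su(var)3-9 (log2 -2.96 ± 0.20, adjusted p = 0.000777). The Pax gene gsb was at 4.40 and 3.60 CPM in Su113, 1.13 and 1.35 CPM in Su140, and 12.0 and 15.9 CPM in Su(var)3-9 (log2 -2.64 ± 0.19). The homeobox gene en was at 6.11 and 6.13 CPM in Su113, 3.94 and 5.79 CPM in Su140, and 17.4 and 21.0 CPM in Su(var)3-9 (log2 -1.81 ± 0.18, adjusted p = 0.00226). For mid and en both alleles were low, and each gene was also called with the 4 Jasper libraries as 1 group. The counts of 7 for the Hox and segment polarity lists stayed 7 with any 1 library left out, and became 0 and 2 with the 4 Jasper libraries as 1 group. Pair-rule genes, upstream of these, were lower in 4 of 9 (median -0.51), and in 2 of 9 without Su(var)3-9 replicate 2 and 7 without replicate 1. The pair-rule gene opa was at 587 and 556 CPM in Su113, 310 and 214 CPM in Su140, and 645 and 959 CPM in Su(var)3-9. For ftz the values were 219 and 217 CPM in Su113, 172 and 148 CPM in Su140, and 254 and 324 CPM in Su(var)3-9. In both genes Su113 lay just under Su(var)3-9, and Su113 alone did not pass (adjusted p = 0.209 for opa and 0.133 for ftz).

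Gap genes, which act first, went the other way in 4 of 7 (57.1%), with 1 lower (14.3%, median 0.44). Of all genes, 12.1% were higher and 17.1% lower. The zinc finger gene hb was at 642 and 589 CPM in Su113, 636 and 685 CPM in Su140, and 424 and 358 CPM in Su(var)3-9 (log2 0.71 ± 0.10, adjusted p = 0.00455). Kr was at 590 and 487 CPM in Su113, 431 and 372 CPM in Su140, and 314 and 298 CPM in Su(var)3-9 (log2 0.60 ± 0.11, adjusted p = 0.00948). Each allele passed alone for both genes. The nuclear receptor genes kni and tll were higher by log2 0.44 ± 0.11 (adjusted p = 0.0216) and 0.58 ± 0.13 (adjusted p = 0.016), and knrl was lower by -0.75 ± 0.23 (adjusted p = 0.0427). Single libraries decided these 3 calls: without Su(var)3-9 replicate 2 the adjusted p was 0.0674 for kni, 0.0592 for tll and 0.261 for knrl, and without Su113 replicate 1 it was 0.0991, 0.0721 and 0.121. The list held 2 genes higher without either library.

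Germ layer genes followed the later patterning genes, beside shares of 17.1% lower and 12.1% higher over all genes tested. Of 11 mesoderm genes, 9 were lower and 0 higher (median -0.78), although 2 were lower without Su(var)3-9 replicate 2, 3 without Su113 replicate 1 and 4 without Su113 replicate 2. The adaptor gene stumps, which serves the FGF receptors of migrating mesoderm, was at 121 and 138 CPM in Su113, 69.1 and 58.3 CPM in Su140, and 229 and 337 CPM in Su(var)3-9 (log2 -1.64 ± 0.16, adjusted p = 0.00189). The FGF ligand gene ths was at 48.1 and 64.6 CPM in Su113, 32.8 and 25.1 CPM in Su140, and 99.8 and 161 CPM in Su(var)3-9 (log2 -1.69 ± 0.21). Ligand and adaptor were both lower in every Jasper library. Of 19 dorsal ectoderm and amnioserosa genes, 10 were lower and 4 higher (median -0.52). The GATA cofactor gene ush was at 95.7 and 115 CPM in Su113, 21.1 and 32.1 CPM in Su140, and 153 and 217 CPM in Su(var)3-9 (log2 -1.80 ± 0.20). The T-box gene Doc2 was at 33.9 and 37.4 CPM in Su113, 11.9 and 8.07 CPM in Su140, and 48.1 and 63.5 CPM in Su(var)3-9 (log2 -1.57 ± 0.18). In contrast zen, the early homeobox gene of the amnioserosa, was higher, at 177 and 163 CPM in Su113, 166 and 170 CPM in Su140, and 110 and 67.3 CPM in Su(var)3-9 (log2 0.92 ± 0.19, adjusted p = 0.0132). The 4 higher genes became 1 without Su113 replicate 1 and 2 without replicate 2. Of 9 endoderm and haemocyte genes, 5 were lower and 1 higher (3 lower without Su113 replicate 1). The GATA gene srp was at 141 and 172 CPM in Su113, 62.4 and 61.2 CPM in Su140, and 190 and 265 CPM in Su(var)3-9 (log2 -1.21 ± 0.15).

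Neural genes were mixed, with 5 of 16 lower (31.2%) and 4 higher (25%, median -0.14). Of all genes, 17.1% were lower and 12.1% higher. The midline regulator sim was at 5.61 and 5.70 CPM in Su113, 1.32 and 4.11 CPM in Su140, and 23.1 and 33.3 CPM in Su(var)3-9 (log2 -2.84 ± 0.36, adjusted p = 0.00366). The neuroectoderm gene ind was at 9.72 and 10.1 CPM in Su113, 3.18 and 2.47 CPM in Su140, and 13.9 and 24.5 CPM in Su(var)3-9 (log2 -1.86 ± 0.23). Both lay below Su(var)3-9 in each Jasper library. The neuroblast repressor gene dpn was higher, at 228 and 231 CPM in Su113, 211 and 206 CPM in Su140, and 155 and 133 CPM in Su(var)3-9 (log2 0.60 ± 0.10, adjusted p = 0.00743). The Jasper alleles were close together in dpn. Of 11 Enhancer of split genes, targets of Notch, 4 were lower and 0 higher, with 3 to 6 lower when 1 library was left out. The repressor gene E(spl)m5-HLH was at 13.3 and 12.3 CPM in Su113, 5.18 and 4.59 CPM in Su140, and 21.8 and 35.4 CPM in Su(var)3-9. The pan-neuronal gene elav was at 175 and 187 CPM in Su113, 98.5 and 62.4 CPM in Su140, and 207 and 314 CPM in Su(var)3-9 (log2 -1.11 ± 0.21). In both genes Su113 was nearer to Su(var)3-9 than Su140 was. The tendon cell regulator sr was at 2.38 and 2.75 CPM in Su113, 1.03 and 0.974 CPM in Su140, and 9.10 and 12.3 CPM in Su(var)3-9. The eye and head gene so was at 2.15 and 2.34 CPM in Su113, 0.417 and 0.356 CPM in Su140, and 4.27 and 7.25 CPM in Su(var)3-9. For ind, elav, sr and so the lowest values were in Su140.

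**Figure D3:**
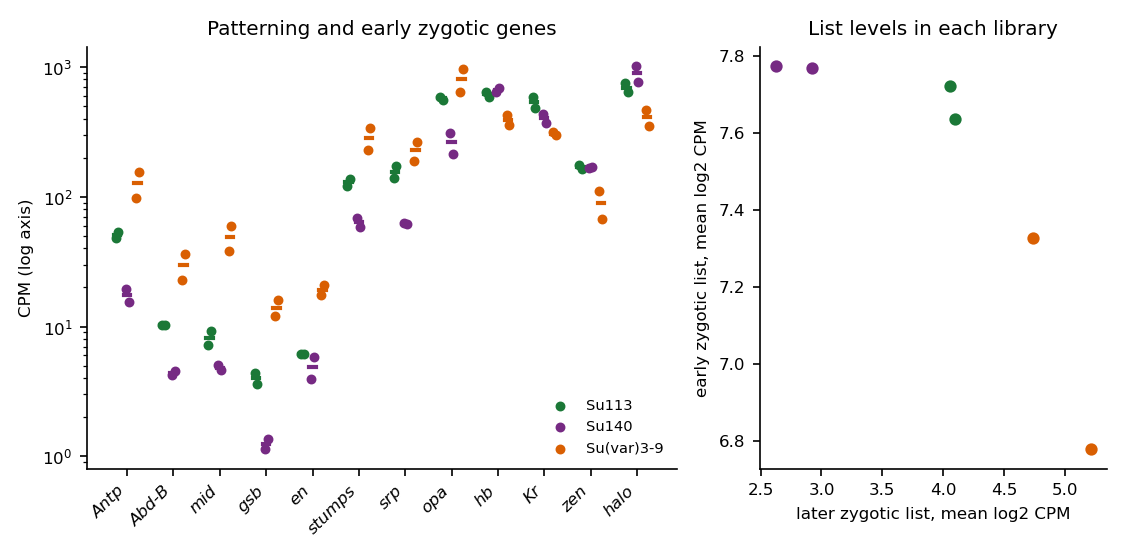
Left, CPM on a log axis of 12 patterning and early zygotic genes, with 1 point per library and a bar at each genotype's mean. Right, mean log2 CPM of the later zygotic list (x) and the early zygotic list (y) in each library, where Su140 is lowest on x (2.62 and 2.93), Su113 in between (4.06 and 4.10) and Su(var)3-9 highest (4.74 and 5.22).

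Lists of markers of progress through NC14 share genes with the lists above, so their direction is no separate support. A list of 29 later zygotic genes, which overlaps the lists above, had 27 lower and 1 higher (median -1.69), and its summed level was 1136 and 1177 CPM in Su113, 446 and 451 CPM in Su140, and 1516 and 2135 CPM in Su(var)3-9. The early zygotic list, which shares hb, kni, Kr and tll with the gap list, had 8 of 15 higher and 2 lower (median 0.65). These shares were 53.3% and 13.3%, beside 12.1% and 17.1% of all genes. Summed, the list was at 8846 and 7318 CPM in Su113, 8138 and 7549 CPM in Su140, and 5767 and 4402 CPM in Su(var)3-9. It too varied with the library left out, from 5 higher without Su113 replicate 1 to 11 without Su(var)3-9 replicate 1. Of the cellularization and gastrulation genes, 5 of 10 were higher and 3 lower, with 3 higher without Su113 replicate 1 or Su(var)3-9 replicate 2. The actin regulator gene bnk, active as cells form, was at 394 and 346 CPM in Su113, 556 and 558 CPM in Su140, and 262 and 148 CPM in Su(var)3-9 (log2 1.15 ± 0.21, adjusted p = 0.00946). The lipid droplet transport gene halo was at 745 and 639 CPM in Su113, 1013 and 768 CPM in Su140, and 467 and 349 CPM in Su(var)3-9 (log2 0.94 ± 0.16). The receptor gene Toll-6, which guides the later germband extension, was at 40.5 and 33.4 CPM in Su113, 7.65 and 18.5 CPM in Su140, and 63.7 and 103 CPM in Su(var)3-9. With the later zygotic score of each library as a covariate, 0 genes passed, 195 had an unadjusted p under 0.05, and w had a log2 value of 5.78 ± 1.48 (adjusted p = 1). Embryo age within NC14 and genotype cannot be told apart here, and the part of age in the patterning results was not tested.

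**Figure D4:**
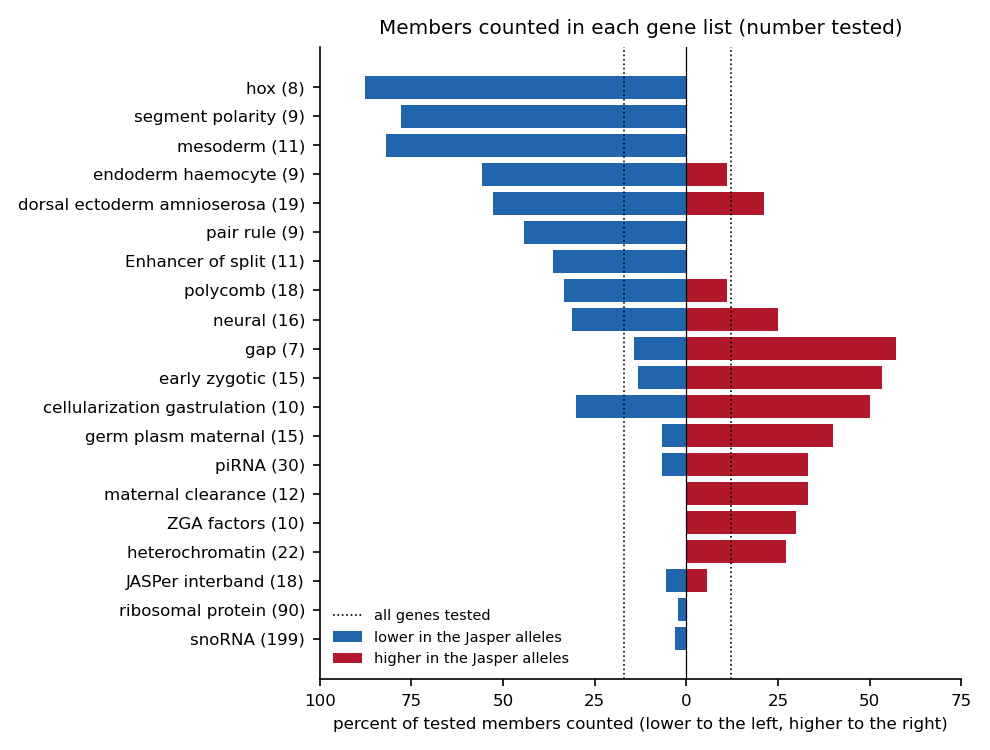
Percent of the tested members of 20 gene lists counted lower (blue, to the left) and higher (red, to the right) in the Jasper alleles, with dotted lines at 17.1% and 12.1%, the shares of all genes tested. Hox, segment polarity and mesoderm genes extend far to the left, and gap and early zygotic genes, 2 lists that share members, to the right.

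The piRNA, germ plasm, maternal clearance and zygotic genome activation lists each had more genes higher than lower. Of all genes, 12.1% were higher and 17.1% lower. Of 30 genes of the piRNA pathway, which silences transposons in the germline, 10 were higher and 2 lower. Their median was 0.18, or -0.0083 without Su(var)3-9 replicate 2. The Piwi protein gene aub was at 482 and 441 CPM in Su113, 513 and 510 CPM in Su140, and 374 and 325 CPM in Su(var)3-9 (log2 0.48 ± 0.09, adjusted p = 0.0107). The helicase gene spn-E was at 302 and 306 CPM in Su113, 330 and 371 CPM in Su140, and 233 and 173 CPM in Su(var)3-9 (log2 0.68 ± 0.13, adjusted p = 0.0106). The Tudor protein gene krimp was at 148 and 145 CPM in Su113, 202 and 212 CPM in Su140, and 120 and 97.8 CPM in Su(var)3-9 (log2 0.68 ± 0.11). SoYb, another Tudor protein gene, was at 214 and 200 CPM in Su113, 198 and 189 CPM in Su140, and 145 and 133 CPM in Su(var)3-9 (log2 0.53 ± 0.10). In all 4 genes the arms did not overlap and the differences were under 2-fold. Without Su113 replicate 1 the adjusted p was 0.056 for aub and 0.0567 for SoYb, and the piRNA list had 2 genes higher, beside 15 without Su(var)3-9 replicate 1 and 4 or 5 without any other library. Maternal germ plasm genes were higher in 6 of 15 and lower in 1, but in 0 without Su113 replicate 1, 12 without Su(var)3-9 replicate 1 and 1 to 3 without any other library. Genes of maternal RNA clearance were higher in 4 of 12, and in 0 when either Su113 library, Su140 replicate 2 or Su(var)3-9 replicate 2 was left out. Zygotic genome activation factors were higher in 3 of 10, in 5 without Su(var)3-9 replicate 1 and in 1 or 2 without any other library. Summed pole cell markers were 332 and 405 CPM in Su113, 542 and 681 CPM in Su140, and 447 and 330 CPM in Su(var)3-9, so the groups overlapped.

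Chromatin genes differed by list, beside the 12.1% higher and 17.1% lower of all genes. Of 18 genes of JASPer partners and interband chromatin, 1 was higher and 1 lower (5 and 2 without Su(var)3-9 replicate 1). NSD, a histone methyltransferase, was at 171 and 149 CPM in Su113, 98.6 and 92.9 CPM in Su140, and 221 and 304 CPM in Su(var)3-9 (log2 -1.09 ± 0.14, adjusted p = 0.00359). The insulator gene BEAF-32 was at 109 and 109 CPM in Su113, 143 and 124 CPM in Su140, and 83.7 and 81.4 CPM in Su(var)3-9 (log2 0.55 ± 0.11), with an adjusted p of 0.0622 without Su113 replicate 1 and 0.0601 without replicate 2. Of 22 heterochromatin genes, 6 were higher and 0 lower (median 0.10), and with 1 library left out 8 were higher without Su(var)3-9 replicate 1, 5 without Su140 replicate 1 and 2 without any of the others. The histone demethylase gene Kdm4B was at 60.2 and 54.9 CPM in Su113, 54.1 and 65.4 CPM in Su140, and 35.9 and 25.9 CPM in Su(var)3-9 (log2 0.92 ± 0.17). The heterochromatin protein gene HP5 was at 509 and 467 CPM in Su113, 569 and 515 CPM in Su140, and 379 and 309 CPM in Su(var)3-9 (log2 0.58 ± 0.11). Both genes were higher in every Jasper library. Of 18 Polycomb group genes, which keep Hox genes silent, 6 were lower and 2 higher (median -0.19), with 2 lower without either Su113 library, 8 without Su(var)3-9 replicate 1, and 3 without its replicate 2 or Su140 replicate 1. E(z), the catalytic subunit of the Polycomb methyltransferase, was at 33.2 and 35.8 CPM in Su113, 21.5 and 16.8 CPM in Su140, and 45.7 and 59.1 CPM in Su(var)3-9 (log2 -1.03 ± 0.16). Its partner Su(z)12 was at 139 and 142 CPM in Su113, 102 and 90.8 CPM in Su140, and 186 and 248 CPM in Su(var)3-9 (log2 -0.90 ± 0.13). Both subunits were lowest in Su140. Of 8 dosage compensation genes, 2 were higher, msl-1 and Clamp, and 1 lower (median 0.07). The lower one, lncRNA:roX2, was at 1.63 and 1.94 CPM in Su113, 0.298 and 0.523 CPM in Su140, and 2.78 and 3.07 CPM in Su(var)3-9. Summed with roX1, the level was 2536 and 2225 CPM in Su113, 1744 and 1540 CPM in Su140, and 2082 and 2598 CPM in Su(var)3-9. On that sum Su113 overlapped Su(var)3-9. Cytosolic ribosomal protein genes, 0 of 90 higher and 2 lower, and small nucleolar RNAs, 0 of 199 higher and 6 lower, were seldom counted.

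By position, chromosome 4, which is rich in heterochromatin, had 17 of 103 genes higher and 26 lower (16.5% and 25.2%, beside 12.1% and 17.1% of all genes). Their median was -0.31, with -0.49 in Su140 and -0.02 in Su113. With Su113 replicate 1 left out these counts were 4 and 9, and without Su113 replicate 2, Su140 replicate 2 or Su(var)3-9 replicate 2 they were 7 and 10, 10 and 14, and 10 and 10. The chromosome 4 gene mav, a ligand of the TGF-beta family, was at 192 and 216 CPM in Su113, 97.6 and 105 CPM in Su140, and 303 and 298 CPM in Su(var)3-9 (log2 -1.06 ± 0.09, adjusted p = 0.00115). Pericentromeric genes, within 2 Mb of the centromeric end of an arm, had 36 of 181 higher and 15 lower (19.9% and 8.29%, median 0.12), again beside 12.1% and 17.1% of all genes. Their counts ranged from 16 higher without Su113 replicate 1 to 40 without Su(var)3-9 replicate 1, and higher genes outnumbered lower ones in each such fit. Within 500 kb of Jasper, 10 of 122 genes were higher and 16 lower, and within 500 kb of Su(var)3-9, 10 of 94 were higher and 18 lower. These shares, 8.2% and 13.1% near Jasper and 10.6% and 19.1% near Su(var)3-9, lay near those of all genes. Near Jasper, 0 genes were higher without either Su113 library, Su140 replicate 2 or Su(var)3-9 replicate 2. Near Su(var)3-9, 3 were higher without either Su113 library and 22 without Su(var)3-9 replicate 1. The 16 lower genes near Jasper became 8 without either Su113 library and 7 without Su(var)3-9 replicate 2, and the 18 near Su(var)3-9 became 10 without Su113 replicate 1 and 9 without Su113 replicate 2 or Su(var)3-9 replicate 2. Near Jasper, the trafficking gene Vps13B was at 55.4 and 53.2 CPM in Su113, 24.9 and 19.8 CPM in Su140, and 70.7 and 101 CPM in Su(var)3-9. CG7920, also near Jasper, was at 10.0 and 10.5 CPM in Su113, 14.7 and 15.9 CPM in Su140, and 46.0 and 27.1 CPM in Su(var)3-9. Both were lower in every Jasper library, Vps13B most in Su140 and CG7920 most in Su113. Near Su(var)3-9, Sdr, a secreted decoy of the insulin receptor, was at 31.1 and 30.2 CPM in Su113, 14.6 and 15.9 CPM in Su140, and 41.7 and 42.5 CPM in Su(var)3-9. Elsewhere on 3R the metalloprotease gene Meltrin was at 75.9 and 95.1 CPM in Su113, 25.5 and 23.2 CPM in Su140, and 165 and 248 CPM in Su(var)3-9 (log2 -2.18 ± 0.17).

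The same genotypes at stages 7 to 8 (St7-8, gastrulation) gave values from other libraries. Embryo age within St7-8 and genotype cannot be told apart either, and the part of age in these values was not tested. There 2835 of 11899 tested genes were counted (23.8%). Of the 1276 genes counted higher at NC14 and tested at both stages, 1180 had the same direction (92.5%), as did 1555 of 1810 counted lower (85.9%), beside 72.9% of all genes tested at both. Among genes passing in each allele at NC14, 74 of 139 higher and 88 of 171 lower were counted in the same direction, and 0 in the opposite one, beside 2574 and 212 of all 10415 genes tested at both stages. Expression of w at St7-8 was 4.27 and 1.86 CPM in Su113, 4.06 and 8.05 CPM in Su140, and 0.307 and 0.267 CPM in Su(var)3-9 (log2 3.90 ± 0.65, adjusted p = 0.0171). CG11275 was at 0.888 and 0.613 CPM in Su113, 1.82 and 1.51 CPM in Su140, and 16 and 18.8 CPM in Su(var)3-9 (log2 -3.96 ± 0.31, adjusted p = 0.00452). At St7-8 Usp5 was at 192 and 193 CPM in Su113, 189 and 177 CPM in Su140, and 59.5 and 51.5 CPM in Su(var)3-9. All 3 genes thus had the direction seen at NC14. For CG32816 the log2 value was 4.14 ± 0.31. Antp was at 81.9 and 35.9 CPM in Su113, 158 and 158 CPM in Su140, and 351 and 348 CPM in Su(var)3-9, again lower in the Jasper alleles, with Su113 now the lowest. The gene bnk, nearly gone from Su(var)3-9 by then at 2.55 and 1.37 CPM, was at 192 and 148 CPM in Su113 and 254 and 254 CPM in Su140.

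Other NC14 differences were not seen at St7-8. The St7-8 log2 value was 0.45 ± 0.45 for mth (adjusted p = 0.471), whose Su(var)3-9 libraries had 13.2 and 4.91 CPM. For Arc1 it was 0.10 ± 0.84 (adjusted p = 0.934) and for pav 0.08 ± 0.11 (adjusted p = 0.574). The lipoprotein gene apolpp on chromosome 4 was lower in the Jasper alleles at NC14, at 37.3 and 42.0 CPM in Su113, 11.2 and 8.65 CPM in Su140, and 45.5 and 58.3 CPM in Su(var)3-9. At St7-8 it was at 844 and 819 CPM in Su113, 378 and 949 CPM in Su140, and 245 and 76.0 CPM in Su(var)3-9, above Su(var)3-9 in each Jasper library, though without passing (adjusted p = 0.0589). The St7-8 count rests on its Su(var)3-9 pools, since it was 226 without replicate 1 and 0 without replicate 2, where 2757 genes had an unadjusted p under 0.05. The difference between stages was not tested.

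**Figure D5:**
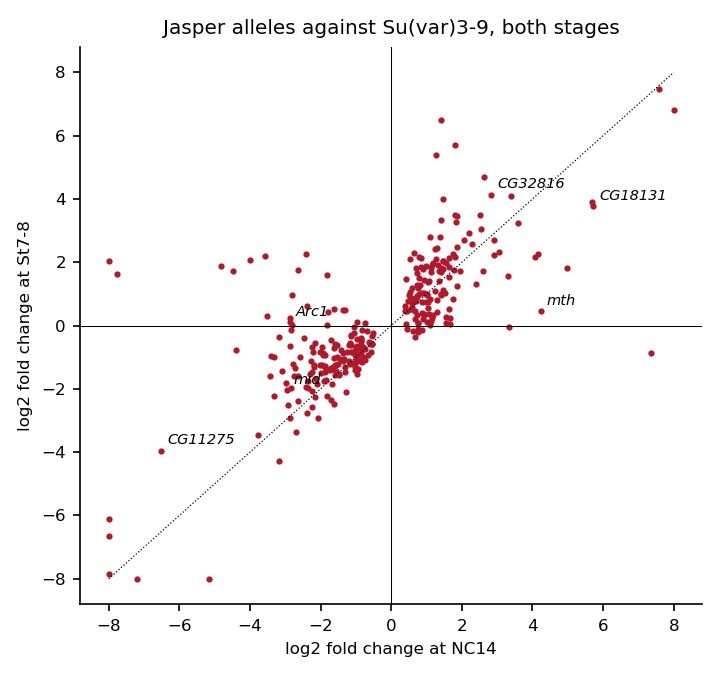
Log2 fold change of the Jasper alleles against Su(var)3-9 at NC14 (x) and at St7-8 (y) for the genes that passed in each allele at NC14 and were tested at both stages, with values past 8 drawn at 8 and a dotted line of equality. Most points lie in the same-sign corners, mth and Arc1 lie near 0 on y, and a few genes low at NC14 lie above 0 at St7-8.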

How the data were processed

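The values were whole-number counts per gene that the authors deposited as 1 unnormalized table. The submitters' processing notes name build dm6 and the tool DESeq2. The aligner, the counter, its strand setting and the annotation are not given in the sources used here. Symbols and coordinates came from Ensembl release 115 (assembly BDGP6, dm6), which matched 17626 of 17753 identifiers.

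For the 6 NC14 libraries, edgeR 4.0.16 (R 4.3.3) kept 10613 genes by filterByExpr, scaled by TMM and fitted 3 group means by quasi-likelihood, with 3 residual and 4.65 prior degrees of freedom. Tests were two-sided, and p-values were adjusted by Benjamini-Hochberg across all tested genes. CPM uses TMM, and log2 CPM a prior count of 2. Ratios for genes with 1 to 3 counts carry exact counting intervals. St7-8 was fitted alike (11899 genes). Figures used matplotlib 3.10.9. The fit was tested on simulated data.

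The comparison, its members and the gene lists were chosen with earlier results of these data known. Genes were named by a rule: the mutated genes, JIL-1 and w, then counted genes of at least 2 CPM with the largest changes or smallest adjusted p, on-off genes, up to 2 counted genes per list, and counted genes whose alleles differed. The text prints part of them. The genes en, kni, tll, knrl, zen, bnk, spn-E, tim, Hsc70-2, Usp5, pav, Nadk2 and SA1 were chosen after their values were seen. Alternatives comprised other scalings, filters, DESeq2 1.42.0, more libraries in the fit, a replicate block, a score covariate and each library left out. No sequence is printed.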

Additional observations from a re-analysis of the deposited data

Results flagged for a closer look

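Named genes whose Jasper alleles differed from each other are listed here with the log2 fold change of Su113 against Su140, from edgeR's quasi-likelihood test adjusted over all genes. Such a gene has a difference from Su(var)3-9 that depends on the allele. Negative values mean a higher level in Su140. The genes higher in Su140 were w (-0.99), kirre (-1.34), CG18131 (-3.36), CG14346 (-4.65), mth (-2.36), cpb (-0.45), Arc1 (-2.52), krimp (-0.50) and Pglym78 (-1.13), with SE of 0.12 to 0.36 and adjusted p of 0.000269 to 0.0369. Patterning genes higher in Su113 were sr (1.36), gsb (1.68), Kr (0.42), knrl (1.05), opa (1.13), Abd-B (1.22), Antp (1.53), so (2.54), ush (1.98), Doc2 (1.84), stumps (1.02), ths (0.96), ind (1.81), E(spl)m5-HLH (1.39), srp (1.34), Toll-6 (1.5), tsh (2.10) and elav (1.17). The other genes higher in Su113 were CG11164 (0.99), lncRNA:roX2 (2.10), NSD (0.74), Su(z)12 (0.54), E(z) (0.85), mRpL2 (0.83), Dscam2 (1.20), Tsp26A (0.58), mav (1.01), apolpp (2.0), nolo (2.79), LManII (1.40), Vps13B (1.28), Meltrin (1.81) and Sdr (1.01). Over both sets the SE was 0.11 to 0.40 and the adjusted p 0.00197 to 0.0493.

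At St7-8 the log2 value of apolpp over both Jasper alleles was 2.21, opposite to its value of -1.39 at NC14 in every library. This difference between stages was not tested.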

How the results depend on the processing

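Against Su(var)3-9, the NC14 count of 3098 was 3102 with DESeq2 size factors, 3733 with DESeq2, 3810 without a filter and 2586 at 2 CPM or more. It was 1688 with the 12 mutant libraries of both stages, 919 with all 16 libraries, 35 with the Jasper libraries as 1 group and 0 with the later zygotic score as covariate. It was 313 if each allele had to pass and 1214 at 2-fold or more. With 1 library left out it ranged from 993 to 4296. For Su113 alone (425) the values were 1371 with DESeq2, 1762 unfiltered, 244 at 2 CPM, 53 with 12 and 46 with 16 libraries, 0 with the covariate (394 genes at an unadjusted p under 0.05), and 15 to 2312 with 1 library left out. For Su140 alone (4570) they were 2929 with 12 and 2302 with 16 libraries, 0 with the covariate (190 at an unadjusted p under 0.05), and 2092 to 5221 with 1 library left out. For Su113 against Su140 (2245) they were 3449 unfiltered, 571 with 12 and 382 with 16 libraries, 0 with the covariate (297 at an unadjusted p under 0.05), and 238 to 3893 with 1 library left out. The St7-8 count of 2835 ranged from 0 to 3629 with 1 library left out. DESeq2 without the covariate gave 3733, 1371, 4994 and 3185 in the 4 NC14 comparisons.

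Replicate numbers did not pair the libraries, since same-numbered libraries deviated with correlations of 0.0372, -0.0456 and -0.11. With a replicate block the counts were 2056 over both alleles, 23 for Su113, 3600 for Su140 and 950 between alleles.

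Of the 78 named genes counted, 20 were still called in every fit but the covariate one, and 0 in every fit. Genes named for large changes or small adjusted p in the main fit are among the 78. Several are also described above as genes called with the Jasper libraries as 1 group, which is among these fits and called 35 genes. Their call in that fit is thus no separate result, and the share of 20 does not describe all counted genes. With the covariate, which leaves 2 residual degrees of freedom, log2 values turned sign for Su(var)3-9 (0.12), JIL-1 (-0.42), sim (0.47), kni (-0.0043), tll (-0.13), ush (0.29), Toll-6 (1.43), zen (-0.65), halo (-0.65), bnk (-0.73), aub (-0.022), spn-E (-0.034), HP5 (-0.32) and Klp3A (0.22). The cause was not tested, and the covariate follows genotype. Since sim, ush and Toll-6 belong to the later zygotic list that makes the score, their change of sign is no separate result. With all 16 libraries in the fit, which share 1 spread, 234 genes were higher and 685 lower, and gap, early zygotic and heterochromatin lists had 0 genes counted. Counts near the floor and 2 libraries per genotype limit the precision of weakly expressed genes.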

Other observations

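Markers of ovary, muscle and late cuticle were low in all 6 libraries. Summed ovarian follicle and yolk genes reached 0.804 to 3.00 CPM, summed muscle genes 3.45 to 14.6 CPM, and the 4 late cuticle genes 0 to 0.143 CPM. Both follicle and yolk sums of Su(var)3-9, 2.07 and 3.00 CPM, lay above the 1.29 and 1.49 CPM of Su113 and the 0.804 and 0.903 CPM of Su140. The 7 genes of older neurons summed to 187 and 198 CPM in Su113, 102 and 67.7 CPM in Su140, and 215 and 327 CPM in Su(var)3-9, most of it from elav.

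Neighbouring genes sometimes passed together. Of the 310 genes on the chromosome arms that passed in each allele, 43 had an adjacent tested gene that passed in the same direction (13.9%), beside 598 of all 10497 tested genes there with an adjacent gene that passed (5.7%). Direction varied with expression level. Of all genes tested, 12.1% were higher and 17.1% lower, 29.2% in all. Among the 2654 genes with the lowest mean level 94 were higher and 290 lower, so that only 14.5% were counted. The next level groups, of 2653 genes each, had 216 higher and 721 lower (35.3% counted), then 384 and 483 (32.7%). Among the 2653 genes with the highest level 587 were higher and 323 lower (34.3%).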
